A study of Drosophila melanogaster with 6 samples.

Results

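The neighbouring InR and E2f1 loci on chromosome arm 3R held 16 of the 5136 peaks that the deposited list gives for Yorkie (Yki) in Drosophila melanogaster embryos. The members are the peaks that overlap positions 17390000 to 17485000 of 3R in FlyBase release 5, a stretch of 95 kb. The locus names come with that definition of the stretch. Gene positions of release 5 were not used here, so no peak was assigned to InR or to E2f1, or to a promoter, exon or intron of either. The stretch was chosen with its peak number already known, so the number of peaks and their spacing are given as a description, without a test.

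Yki binding was profiled by chromatin immunoprecipitation followed by sequencing (ChIP-seq), with 3 Yki ChIP libraries and 3 input libraries. All 6 libraries came from whole embryos aged 8 to 16 h of the strain written Y cn bw sp, crosslinked in 1.8% formaldehyde for 15 min. The antibody, Yki91, is a crude rabbit polyclonal serum against full-length Yki. The genotype was the same for ChIP and input. It carries y[1] and oc[R3.2] on the first chromosome listed. Next in the label come Gr22b[1] with Gr22d[1], then cn[1], CG33964[R4.2], bw[1] and sp[1]. LysC[1] and lab[R4.2] are listed last, together with MstProx[1], GstD5[1] and Rh6[1]. A whole embryo mixes many cell types, so strong binding in few cells and weak binding in many cells cannot be told apart.

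InR encodes the receptor tyrosine kinase for the insulin-like peptides of the fly. It passes nutrient state through the adaptor Chico and the PI3K and Akt kinases to cell growth. E2f1 encodes the activating E2F transcription factor, which pairs with Dp, is held in check by the retinoblastoma protein Rbf and turns on genes for DNA synthesis. Yki is the growth-promoting coactivator that the Hippo pathway keeps out of the nucleus, and as it does not bind DNA by itself it works with DNA-binding partners, of which Scalloped is the best known. Yki with Scalloped and E2f1 are known to cooperate in driving cell cycle genes in fly tissue.

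InR (gene ID 42549, locus tag CG18402) and E2f1 (gene ID 42550, CG6376) follow each other directly in the gene order of 3R, with 0 genes between them in the RefSeq table for release 6, which was used for names and order alone. In that table, 2 non-coding RNA genes lie within the span of InR, namely lncRNA:Irar and lncRNA:CR44034. The span of E2f1 encloses 5 genes, among them mir-11 and mir-998. The microRNA made from mir-11 is known to dampen cell death driven by E2f1. On the InR side the next protein-coding genes are CG15498 and slou, which encodes a homeodomain protein of muscle founder cells. On the E2f1 side they are Archease, Jhbp16 and PolA1. PolA1 encodes the catalytic subunit of DNA polymerase alpha.

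The list gives each peak 1 score, the value of the authors' peak caller, on a scale the file does not state. Scores are used only to describe and rank peaks within this list. No value per library is given, so neither the depth nor the spread between replicates is known for any peak, and no difference below has a replicate check.

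The 16 peaks had their strong sites in the middle of the stretch, as 1 single peak and a row of 5. Weaker peaks lay between them and on both sides. The highest score was 221.97 and the lowest 10.75. In order of position the peaks are numbered 1 to 16. Of the 16, 6 had scores in the highest 25% of the list, or 37.5% (exact Clopper-Pearson 95% interval 15.2 to 64.6%). The share was 25% by construction over the whole list, 24.6% over the 737 peaks of 3R and 23.6% over the 6 arms. These 6 were peaks 6, 9, 10, 11, 12 and 13, and they lay within 28.7 kb of each other. The remaining 10 peaks scored between 10.75 and 42.07. The interval spans the share of 3R, and it covers counting error over peaks only. It treats the peaks as independent draws, which neighbouring peaks of a chosen stretch are not, so it serves as description alone.

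**Figure D1:**
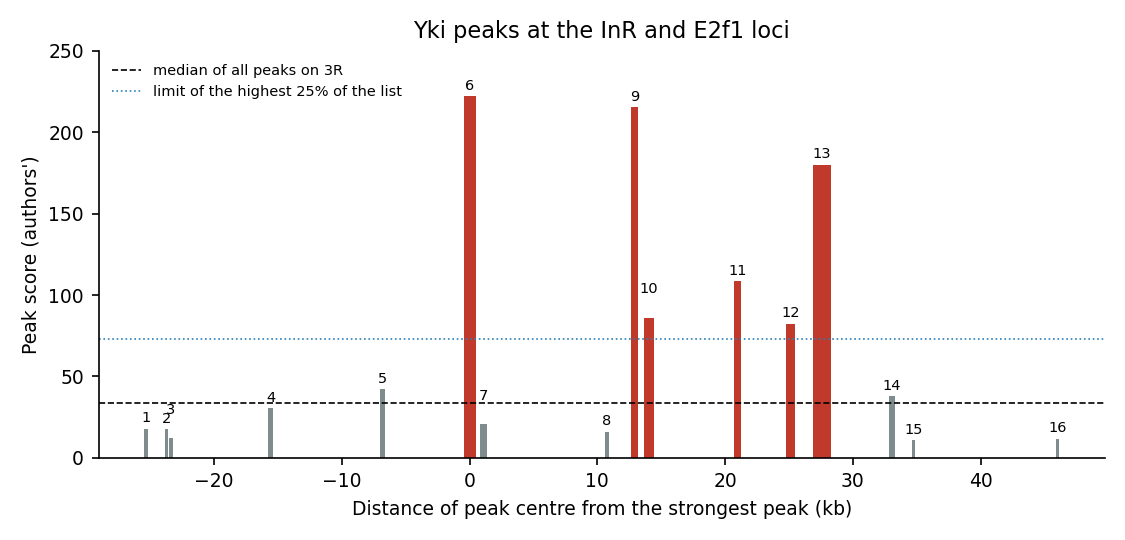
Score of each of the 16 Yki peaks (vertical axis, the authors' peak score) against the distance of the peak's centre from that of the strongest peak (horizontal axis, kb). Each bar is 1 peak, as wide as the peak itself and numbered in order of position, red where the score is in the highest 25% of the list; the dashed line is the 3R median of 33.4. The red peaks are peak 6, which stands alone, and peaks 9 to 13. The weak peaks 7 and 8 lie between them, and weaker peaks than the red ones lie on either side.

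The left edge was weak. Peak 1, at 17405861 to 17406105, was 245 bp wide and scored 17.75. Peak 2, at 17407441 to 17407731, scored 17.62 over 291 bp, and only 62 bp separated it from peak 3, at 17407794 to 17408064, which scored 12.01 over 271 bp. All 3 lay below the 3R median of 33.4. Peak 3 outscored 10.98% of the list, and peak 1 outscored 29.7% of it.

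Scores were higher at the next pair. Peak 4, at 17415525 to 17415938, scored 30.36 over 414 bp. Peak 5, at 17424280 to 17424715, scored 42.07 over 436 bp. Peak 4 sat at the middle of the list, with 50.1% of peaks below it, and peak 5 stood above 60.1% of peaks.

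Peak 6 was the strongest site of the 2 loci. It covered 940 bp at 17430852 to 17431791, scored 221.97 against the 3R median of 33.4, and ranked 175 of 5136 in the list and 25 of 737 on 3R. The weak peak 7 followed after a gap of 331 bp, at 17432123 to 17432707. It scored 20.75 although it was 585 bp wide. Among the 6 members in the highest 25% of the list, peak 6 was the only one whose neighbours on both sides, peaks 5 and 7, were outside that class.

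A second group followed after 9197 bp without a peak. It opened with the weak peak 8, at 17441905 to 17442255, which scored 15.89 over 351 bp. Peak 9, at 17443950 to 17444518, scored 215.18 and was the second strongest member, although its width of 569 bp ranked only 250 on 3R. Peak 10 began 421 bp further, at 17444940 to 17445746, and scored 86.04 over 807 bp. These scores placed peak 9 at rank 185 and peak 10 at rank 1077 of the list.

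Strong peaks went on to the right. Peak 11, at 17452002 to 17452563, scored 108.42 over 562 bp. Peak 12, at 17456099 to 17456762, scored 82.30 over 664 bp. Peak 13, at 17458220 to 17459575, scored 180.05, and at 1356 bp it was the widest of the 16 and the number 32 in width on 3R. With peaks 9 and 10 these make 5 peaks in a row with scores from 82.30 to 215.18, over 15.6 kb.

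Such a row was rare on the arm. All 733 sets of 5 successive peaks on 3R were examined, a measure chosen after the values had been seen. In 2 of them every score was in the highest 25% of the list. The other set, at 8293186 to 8334961, spread over 41.8 kb with scores from 97.11 to 177.62. On all 6 arms (2L, 2R, 3L, 3R, 4 and X) 10 of 3158 such sets met the same condition.

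Scores fell again at the right edge. Peak 14, at 17464123 to 17464656, scored 37.69 over 534 bp, above the 3R median of 33.4 and above 56.6% of the list. Peak 15, at 17465987 to 17466212, scored 10.75, the lowest of the 16, and peak 16, at 17477263 to 17477464, scored 11.71 over 202 bp. Peak 15 outscored 6.52% of the list and peak 16 outscored 10.2%.

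As a set, all 16 peaks were close to the arm in median score and reached neither its lowest nor its highest scores. Their median score was 34.0 (95% interval of the median from order statistics 15.89 to 108.42), against 33.4 (31.0 to 37.5) for the other 721 peaks of 3R and 30.1 for the whole list. The difference in medians was 0.63. It was 21.4 in the strongest 50% of the list, where 9 members remain. That cut is made on the score being compared and removes the 7 members under the list median, so 21.4 does not describe the whole set. Of the 16, 8 lay at or above the 3R median and 8 under it. In the highest 10% of the list were 3 members, peaks 6, 9 and 13, or 18.75% (exact 95% interval 4.05 to 45.6%), with 10.0% over the list and 10.3% on 3R. In the highest 50% of the list were 9 members, or 56.25%, with 50.0% over the list and 55.1% on 3R. The highest score on 3R was 472.97, and 24 peaks elsewhere on the arm scored higher than peak 6.

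**Figure D2:**
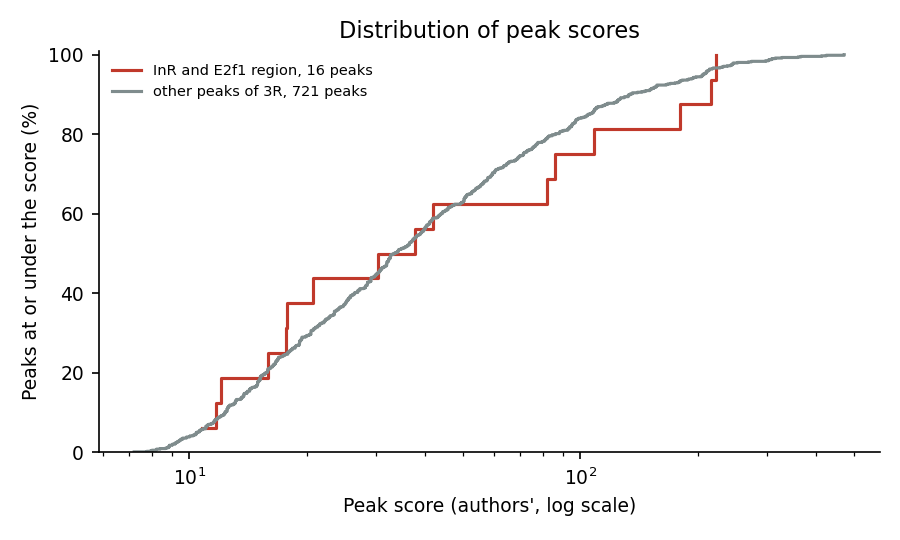
Cumulative share of peaks (vertical axis, %) at or under each score (horizontal axis, log scale) for the 16 peaks of the InR and E2f1 region (red) and the other 721 peaks of 3R (grey). Both curves pass 50% near the same score, with medians of 34.0 and 33.4, and the red curve is flat from 42.07 to 82.30, where no member scored.

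Stronger members were also wider. The 6 members in the highest 25% by score were 562 to 1356 bp wide with a median of 735.5 bp, and the other 10 were 202 to 585 bp wide with a median of 321 bp. The groups overlapped in width through peak 7 alone, which at 585 bp was wider than peaks 9 and 11. Across the 16 peaks the Spearman correlation of width and score was 0.88, and it was 0.74 across all peaks of 3R; width and score come from the same reads of a peak, and no p is given. The median width of the 16 was 485 bp (interval of at least 95% from order statistics 271 to 664 bp) against 442 bp for the other peaks of 3R. Within the strongest 50% of the list this difference of 43 bp turned to -18 bp. In the widest 25% of the list were 4 members, peaks 6, 10, 12 and 13, or 25%, with 30.9% on 3R.

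**Figure D3:**
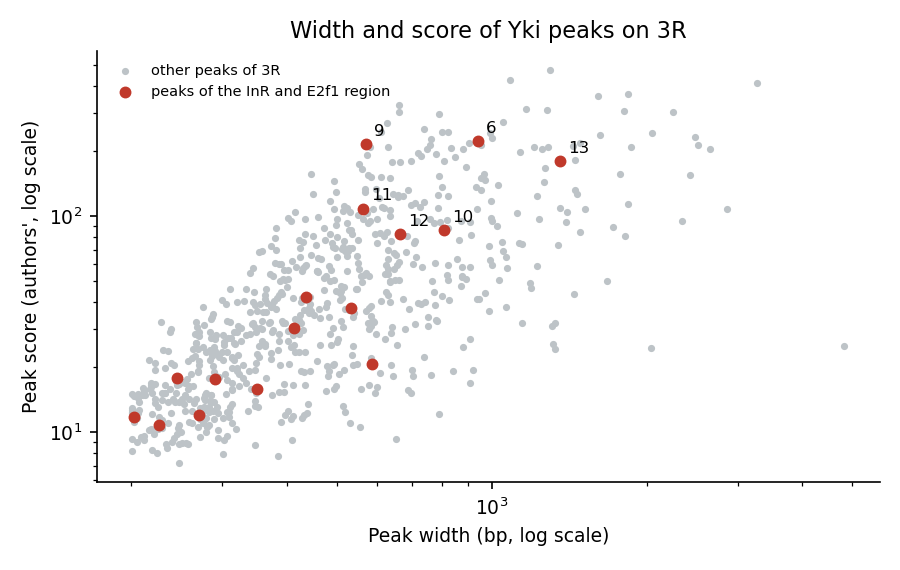
Width (horizontal axis, bp, log scale) and score (vertical axis, log scale) of each peak on 3R, with the 16 peaks of the InR and E2f1 region in red and numbers on the 6 in the highest 25% by score. The red points follow the cloud of the other peaks, and peak 9 scored high for its width of 569 bp.

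What set the 2 loci apart on the arm, and what led to their choice, was the number of peaks. The stretch had 168 peaks per Mb against 26.5 per Mb over 3R, a ratio of 6.36, and its peaks covered 8.90% of its bases against 1.48% of the arm. Along 3R, 5550 windows of the same length in steps of 5 kb held a median of 2 peaks, and 1062 of them held none. The 7 windows with 16 or more peaks all overlapped the InR and E2f1 stretch. The highest number in the 5512 windows that did not overlap it was 14. Counting only peaks in the highest 25% of the list, the stretch had 6 and no window outside it had more than 5. Counting only the highest 10%, the 3 of the stretch were matched, and not exceeded, by 54 overlapping windows elsewhere on the arm, which join into 5 stretches.

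**Figure D4:**
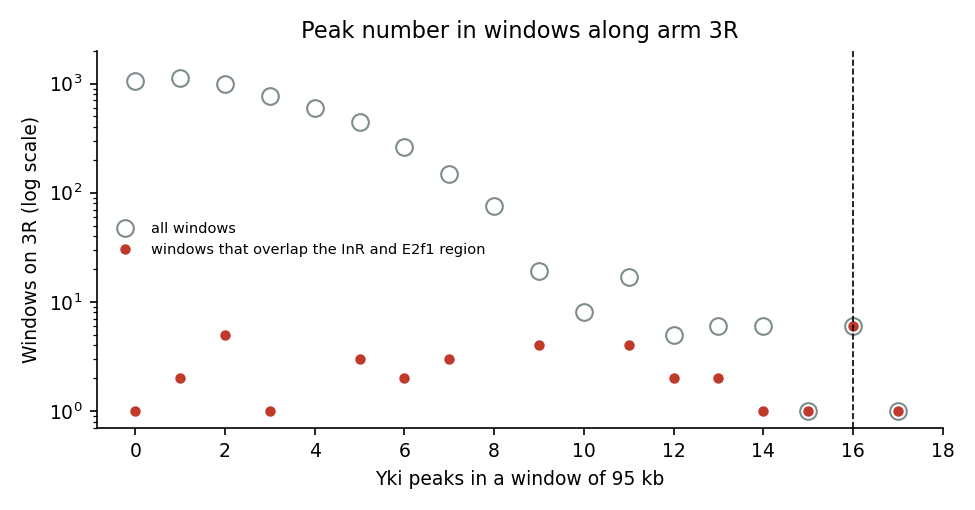
Number of windows on 3R (vertical axis, log scale) by the number of Yki peaks in the window (horizontal axis) for 5550 overlapping windows of 95 kb; open circles are all windows and red points those that overlap the InR and E2f1 region. The dashed line marks the 16 peaks of the region itself, and the windows with 16 or 17 peaks are all red.

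The next densest stretches of 3R held fewer peaks in the highest 25% of the list. Windows that overlap neither the 2 loci nor each other were ranked by peak number. The first of them, at 12020001 to 12115001, had 14 peaks with a median score of 29.5, of which 3 were in the highest 25% of the list. The second, at 10480001 to 10575001, had 13 peaks with a median of 22.3 and 2 in that class. The third, at 9790001 to 9885001, had 11 peaks with a median of 23.5 and 3 in that class, and its strongest peak, at 268.74, exceeded peak 6. The InR and E2f1 stretch had 6 of 16 in that class, or 37.5%, and a median of 34.0. Over all peaks of 3R the share was 24.6%, which lies within the interval given above for the stretch. In the highest 10% of the list each of the 3 windows had 2 peaks, and the stretch had 3. These differences were not tested, since the windows were chosen by their peaks.

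The members lay close together and ended in a wide empty stretch. The median gap between successive members was 3.54 kb, and over 3R it was 16.6 kb. Another peak lay within 10 kb of 15 of the 16 members, or 93.75%. That share was 61.9% on 3R, 63.4% on the 6 arms and 67.0% over the whole list. The share of the members follows from the density for which the stretch was chosen. The exception was peak 16, which lay 11.05 kb from peak 15. Of the 15 gaps between members, 3 were at most 1 kb long, or 20.0%, with 14.5% on 3R. These short gaps joined peaks 2 and 3, peaks 6 and 7, and peaks 9 and 10, so that 13 separate sites remain if peaks at most 1 kb apart are taken as 1.

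Joined at gaps of up to 10 kb, peaks 1 to 15 formed a single run of 60.4 kb, from 17405861 to 17466212. It had the most peaks of the 444 runs and single peaks on 3R and was the longest of them. The next in peak number on the arm, at 7584157 to 7606431, had 8 peaks over 22.3 kb, with a higher median score of 82.6 against 37.7 and a highest score of 425.36. The next in length, at 5040104 to 5073216, had 7 peaks over 33.1 kb. Over all 6 arms the run of the 2 loci was the third in peak number and the second in length.

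The 2 runs with more peaks had lower scores. No sequence was read, so whether these runs lie in repeated sequence was not examined. Their peak numbers and scores may therefore not compare with those of the 2 loci. The run on 2L at 21451242 to 21541317 had 39 peaks over 90.1 kb, a median score of 24.2 and a highest score of 70.48. The run at the start of 3L, at 193 to 19780, had 17 peaks with a highest score of 23.12. Neither held a peak in the highest 25% of the list, where the InR and E2f1 run held 6. Among the 1862 runs and single peaks of the arms, 3 held 6 such peaks and none held more. The other two were on 2R, at 6305366 to 6326000 with 7 peaks over 20.6 kb and at 6421568 to 6452103 with 13 peaks over 30.5 kb. The median score of the former, 162.69, was well above the 37.7 of the InR and E2f1 run.

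Outside the limits of the stretch, the nearest peak on the left lay at 17387151 to 17387663, 2.34 kb beyond the edge, and scored 41.74. It was 18.2 kb from peak 1, which itself lay 15.9 kb inside the edge. On the right, the list held no peak for 157 kb after peak 16, up to a peak at 17634293 to 17634647 that scored 30.39. This was the number 32 in length among the 736 gaps of 3R. The adjoining stretch of 95 kb on the left had 2 peaks, neither in the highest 25% of the list, and that on the right had 0.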

How the data were processed

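Peaks were deposited as 1 list for the whole series, which names no sample. Positions are those of FlyBase release 5, and MACS made the calls, per the file headers. MACS2, BWA and CASAVA (versions 1.7.0.3 and 1.7.0.2) appear in the submitters' processing notes with the build BDGP5 but without settings. The way libraries were combined is not stated there. The deposited value per peak is a score. Reads per library are unknown, so no depth, floor or replicate error can be given.

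From the list, peaks overlapping the stretch by at least 1 bp were taken as members. Ranks, medians, gaps, runs (gaps of at most 10 kb) and counts in windows of 95 kb were computed with Python 3.11.15, numpy 2.4.6, pandas 2.3.3 and scipy 1.17.1, with figures from matplotlib 3.10.9. The functions were tested on simulated data. The furthest peak end, 27841763, stood for the length of 3R. Peaks are not replicates, so no test between groups of peaks was run. Every peak of the stretch is named. The members and measures were chosen with earlier results of these data known. Gene lists and motifs, which need positions or sequence of release 5, were not analysed here. Alternatives were stricter score limits, other neighbour distances, merging, whole-peak overlap, other windows and the 6 arms as comparison.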

Additional observations from a re-analysis of the deposited data

How the results depend on the processing

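The stretch kept its place as the densest on 3R, against windows that do not overlap it, in the strongest 50% and 25% of the list. The same held with peaks at most 1 kb apart merged, and with windows set side by side. In the strongest 25% the lead was small, with 6 peaks against at most 5 in a window outside the stretch. In the highest 10%, its 3 peaks were matched, and not exceeded, by 54 overlapping windows elsewhere on 3R. The stretch was chosen for its peak number, so its rank follows in part from that choice. Its peak number was 16 with whole peaks required inside and 13 after merging. By construction it fell to 9 and 6 in the strongest 50% and 25%. The share of members with a neighbour was 81.25% at 5 kb and 100% at 20 kb, where 3R had 48.4% and 76.7%. The difference in median score was 0.63 from the other 3R peaks and 3.35 from the other peaks of all 6 arms. From the other 3R peaks it was 21.4 in the strongest 50%, where 9 members remain after a cut on the score itself. The difference in median width, 43 bp, was 55 bp against the 6 arms and turned to -18 bp in the strongest 50%. Motif counts in promoters were not run, since no sequence was used. No paired analysis was possible because single libraries have no values in the list, and leaving out a replicate was impossible too. Depth per library is unknown, so weak sites that the depth hid cannot be counted.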
